A study of Mus musculus with 6 samples.

Results

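The comparison set mouse intestinal organoids given an excess of all-trans retinoic acid against organoids kept in medium free of vitamin A. It used all deposited cell barcodes of both libraries, 10328 of the 29565 barcodes of the series, with 5365 from the retinoic acid library and 4963 from the vitamin A-free library. The 4787 barcodes of the day-4 vehicle library were used only to place an intermediate level between these ends. An organoid is a small gut epithelium in culture, in which stem cells coexist with the absorptive and secretory cells they give rise to. All were C57BL/6, wild type, from mice aged 8 weeks, and the series design states that organoids came from 2 mice in duplicate; which mice are in which library is not given in the sources used here. Cells were taken 96 hours after the first treatment, on day 4. The retinoic acid group received 10 µM retinoic acid (the labels write the unit "μm") on day 0 and again on day 3, when a Wnt3a-conditioned medium with ROCK and GSK3B inhibitors was exchanged for medium with EGF, Noggin and R-spondin. The vehicle group received DMSO on the same days. The vitamin A-free group is named only by its medium, so whether it also received DMSO is not stated.

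Vitamin A reaches the gut as retinol or as plant carotenoids, which enterocytes take up, cleave, bind and oxidise to retinoic acid. Retinoic acid binds nuclear receptors of the RAR family, which pair with RXR on DNA, and it induces enzymes that remove it and a homeobox repressor, ISX, that shuts down carotenoid uptake and cleavage. RXR is also the partner of the receptors for fatty acids (PPAR), bile acids (FXR), oxysterols (LXR) and vitamin D (VDR).

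Each group was 1 library, so no difference below carries a test and genes are called higher or lower by size alone. The libraries held 51983914 (vitamin A-free), 52627278 (vehicle) and 64055924 (retinoic acid) unique molecular identifiers (UMIs), the counted molecules. Median UMIs per cell were 10011, 10825 and 11782 in that order. The median mitochondrial share was 3.69%, 3.58% and 4.40%, and the 10 most abundant genes took 8.64%, 9.95% and 17.2% of UMIs. The retinoic acid and vitamin A-free libraries shared 4 barcodes, and the vehicle shared 12 with the first and 3 with the second. All 8 epithelial marker genes reached 10 CPM (UMIs per 1000000 of the library) in at least 1 end library, whereas 0 of 9 immune, 0 of 3 endothelial and 0 of 4 red blood cell markers were. Of 8 fibroblast and muscle markers only Vim was, at 10.8, 8.53 and 2.19 CPM in vitamin A-free, vehicle and retinoic acid organoids. Levels are in CPM and are always listed in this order of rising retinoid. Intervals are exact at 95% and cover counting error only, not the spread between cultures. In such library sums, fewer cells of a type and less RNA per cell cannot be told apart.

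The highest centred log2 ratios belonged to the ileal bile acid-binding protein Fabp6 and the homeobox gene Isx, and the lowest to the chymotrypsinogen Ctrb1. Among 8323 genes at 10 CPM or more in either end library, 636 (7.64%) were at least 2-fold higher with retinoic acid than in vitamin A-free medium and 374 (4.49%) at least 2-fold lower. These calls used log2(CPM + 5) ratios centred on the median of all 8323 genes, because that median was -0.36 at equal totals. Without centring, 352 genes were higher and 1051 lower. With DESeq2 size factors the split was 839 to 283, and with the most abundant genes left out of the totals it was 458 to 840.

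Each ratio was divided into a removal step, vehicle over vitamin A-free medium, and an excess step, retinoic acid over vehicle. Both steps contain the vehicle library, so they are not independent. A gene is termed graded when both steps were at least 1.5-fold in the same direction, and excess-sided or removal-sided when only that step was. Of the 1010 genes, 786 (77.8%) were excess-sided, 173 (17.1%) graded, 33 (3.27%) removal-sided, and 15 had no step of 1.5-fold. In the other 3 the steps were opposed, with the vehicle outside the range of the ends. The vehicle lay between the ends in 609 of the 636 higher genes and 349 of the 374 lower genes. The removal step made up a median of 25.4% of the log2 ratio of the higher genes (quartiles 16.4% to 35.5%) and 28.8% of that of the lower genes (19.5% to 37.3%). Over all 8323 genes, 1603 (19.3%) were at least 1.5-fold apart at the excess step and 241 (2.9%) at the removal step. With steps of 25%, 602 genes were graded and 396 excess-sided, so the classes describe sizes of steps and not separate kinds of gene.

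**Figure D1:**
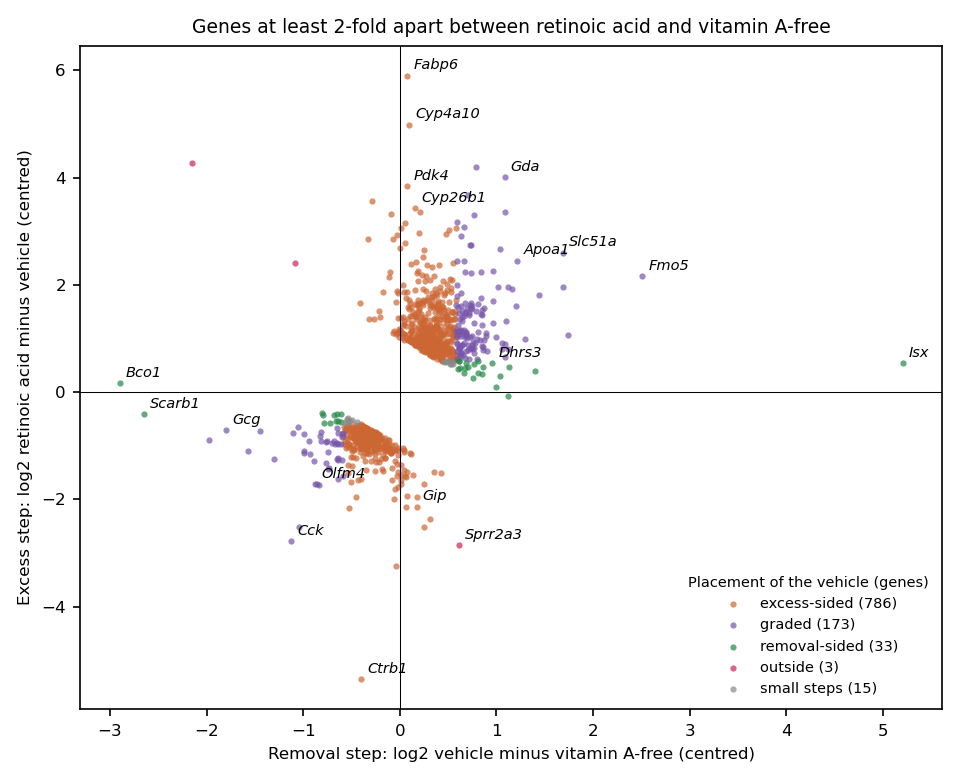
Each point is 1 of the 1010 genes at least 2-fold apart between the ends, with the removal step on the horizontal axis and the excess step on the vertical axis, both as centred log2 ratios. Most points lie nearer to the vertical axis. Isx, Bco1 and Scarb1 lie far out along the horizontal axis, and Sprr2a3 lies where the steps are opposed.

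The genes that set carotenoid uptake and cleavage differed mainly between vitamin A-free medium and the vehicle, and less between the vehicle and the excess. Isx, the homeobox repressor of this pathway, was at 0.0577 in vitamin A-free medium, 172 in the vehicle and 207 with retinoic acid (CPM). The vitamin A-free level rested on 3 UMIs, and the CPM ratio of the ends was 3588 (exact 95% interval 1227 to 17399). Only a factor of 1.21 (1.17 to 1.24) of this lay between the vehicle and retinoic acid. Bco1, the oxygenase that cleaves beta-carotene to retinal, ran the other way, at 45.4 in vitamin A-free medium, 1.39 in the vehicle and 0.921 with retinoic acid (CPM). It was 49.2 (38.04 to 64.9) times lower with retinoic acid than in vitamin A-free medium, and 32.7 (25.9 to 41.9) times lower already in the vehicle. Scarb1, a scavenger receptor that takes up carotenoids and lipids, was at 78.8, 7.64 and 2.87 CPM, a ratio of the ends of 27.4 (23.6 to 31.96), of which the vehicle accounted for 10.3 (9.30 to 11.5). The vehicle thus sat near the retinoic acid end for all these genes. Bco2, which cleaves carotenoids at another bond, was instead higher at each step, at 20.4, 32.6 and 83.5 CPM.

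The promoters of Bco1, Isx and Cyp26b1 are shown because these genes had the most uneven placement in the retinoid pathway. The RefSeq sequences (GRCm38.p6) run from 250 bases before to 50 bases after the annotated start, in the direction of the gene. They lie at chr8:117095615-117095914, plus strand, chr8:74872924-74873223, plus strand, and chr6:84593761-84594060, minus strand. Capitals mark each nuclear receptor half-site, AGGTCA or AGTTCA, on either strand.
Bco1: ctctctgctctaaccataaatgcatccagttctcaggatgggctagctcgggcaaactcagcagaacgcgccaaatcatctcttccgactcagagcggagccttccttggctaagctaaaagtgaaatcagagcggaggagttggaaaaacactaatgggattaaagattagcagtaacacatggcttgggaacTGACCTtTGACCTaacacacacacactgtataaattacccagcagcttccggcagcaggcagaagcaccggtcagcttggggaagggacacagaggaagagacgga
Isx: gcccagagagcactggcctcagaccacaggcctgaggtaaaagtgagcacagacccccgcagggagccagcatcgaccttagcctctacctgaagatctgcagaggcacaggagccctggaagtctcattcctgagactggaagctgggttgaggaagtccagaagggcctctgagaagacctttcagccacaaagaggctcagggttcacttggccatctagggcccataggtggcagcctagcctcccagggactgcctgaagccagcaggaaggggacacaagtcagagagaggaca
Cyp26b1: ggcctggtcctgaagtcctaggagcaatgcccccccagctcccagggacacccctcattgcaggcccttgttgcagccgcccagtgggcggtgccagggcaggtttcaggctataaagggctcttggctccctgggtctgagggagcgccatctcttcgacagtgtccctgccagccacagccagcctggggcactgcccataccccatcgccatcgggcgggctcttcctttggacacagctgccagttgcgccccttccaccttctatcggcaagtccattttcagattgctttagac
The Bco1 promoter held 2 half-sites on its minus strand, read there as AGGTCAAAGGTCA, a direct repeat spaced by 1 base that begins at position -56 from the start. A half-site occurred in 27.7% of 32851 promoters of this length, and such a repeat in 27 of them (0.0822%). Repeats spaced by 2 or by 5 bases occurred in 13 promoters each (0.0396%), and those of Isx, Cyp26b1 and Dhrs3 held neither a half-site nor a repeat. A match describes letters in this window and shows no binding. Scarb1 had no entry in the table.

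The share of cells with a UMI showed the same order when every cell was thinned to 3000 UMIs. Isx was detected in 0.0407%, 40.7% and 44.7% of cells, and unthinned in 0.0604%, 79.05% and 87.96%. Bco1 was detected in 10.8%, 0.410% and 0.325% and Scarb1 in 20.03%, 2.23% and 0.821%, unthinned in 24.5%, 1.42% and 1.04% and 46.97%, 7.52% and 3.23%. In cells rich in enteroendocrine transcripts and thinned alike, 0 of 74, 2 of 56 and 4 of 22 cells had an Isx UMI. Enteroendocrine cells are a hormone lineage apart from absorptive cells, but these cells overlapped other classes, as given below. Taking 0 as up to 3 counts, 0 of 74 allows up to 4.05% of cells with a UMI at the thinned depth. For Bco1 the figures were 6 of 74, 3 of 56 and 2 of 22, with levels of 25.2, 32.2 and 30.03 CPM. In these few cells Bco1 thus showed no such order, from 12, 12 and 4 UMIs. The interval of its retinoic acid level, 8.18 to 76.9 CPM, is too wide to show equal levels. Scarb1 in the same cells was at 75.5, 40.2 and 22.5 CPM, from 36, 15 and 3 UMIs. Median depth there was 5547.5, 5691.5 and 4386.5 UMIs.

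Dhrs3, a reductase that returns retinal to retinol, was at 41.1, 79.6 and 96.5 CPM, a ratio of the ends of 2.35 (2.24 to 2.47), most of it at the removal step (1.94 (1.84 to 2.04)). Its centred excess step, 0.54 on the log2 scale, equalled that of Isx and fell just short of 1.5-fold. Dhrs3 was therefore graded under 5 of 14 other settings and Isx under 4 of 14, while Bco1 stayed removal-sided under 12 of 13 and Scarb1 under 9 of 14. Cyp26b1, the hydroxylase that degrades retinoic acid, was its opposite in placement. It had 2, 16 and 2687 UMIs, or 0.0385, 0.304 and 41.9 CPM, and was 138 (84.8 to 242) times higher with retinoic acid than in the vehicle. It was detected in 0.0204%, 0.0864% and 8.99% of thinned cells, and unthinned in 0.0403%, 0.230% and 17.9%. In the enteroendocrine-rich cells it was detected in 0 of 74, 0 of 56 and 0 of 22, which at 22 cells and the thinned depth allows up to 13.6% (3 counts). Cyp26a1 and Cyp26c1, its paralogs, had 0 UMIs in the 3 libraries.

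Of 43 genes listed for retinoid handling, 26 were at 10 CPM in either end, 17 of them at least 1.5-fold higher with retinoic acid and 6 lower, against 16.2% and 14.6% of all genes compared. Their median centred log2 ratio was 1.41, against 0 for all genes. Rbp2, the abundant retinol-binding protein of enterocytes, was at 4140.4, 6249.7 and 16203 CPM, or 3.91 (3.90 to 3.93) times higher across the ends. Rbp7, a binding protein of the same family, went the other way at 49.9, 59.6 and 5.35 CPM, with the vehicle level slightly above both ends. Retsat, retinol saturase, was at 56.1, 61.1 and 420.1 CPM, and its removal step was 1.09 (1.04 to 1.15) against an excess step of 6.87 (6.62 to 7.13).

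Enzymes that interconvert retinol, retinal and retinoic acid were divided. Aldh1a1, which makes retinoic acid from retinal, was at 198, 285 and 818 CPM. Adh1, a retinol and ethanol dehydrogenase, was at 394, 588 and 785 CPM, with similar steps of 1.49 (1.47 to 1.52) and 1.33 (1.31 to 1.35). The aldo-keto reductases Akr1b7 and Akr1b8, which can reduce retinal among many aldehydes, were at 17.1, 31.1 and 541 CPM and 19.8, 44.98 and 419.5 CPM. By CPM they were 31.7 (29.6 to 33.9) and 21.2 (19.9 to 22.5) times higher across the ends, and both were graded. The retinol dehydrogenases Rdh10 and Adh4 were higher by the same rule, at 26.9, 29.6 and 49.4 CPM and 29.9, 36.5 and 118 CPM. Rdh7 (217, 207 and 203 CPM), Rdh11 (88.9, 119.9 and 113 CPM) and Adh5 (278, 249.7 and 242 CPM) were within 2-fold; the direction of Rdh7 and Adh5 depended on centring. Lrat, which esterifies retinol for storage, was lower at each step (11.5, 5.49 and 1.51 CPM), as was Rbp4, the secreted retinol carrier (10.1, 3.17 and 0.172 CPM). With likely doublets removed Rbp4 was at 4.49, 2.52 and 0.165 CPM.

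**Figure D2:**
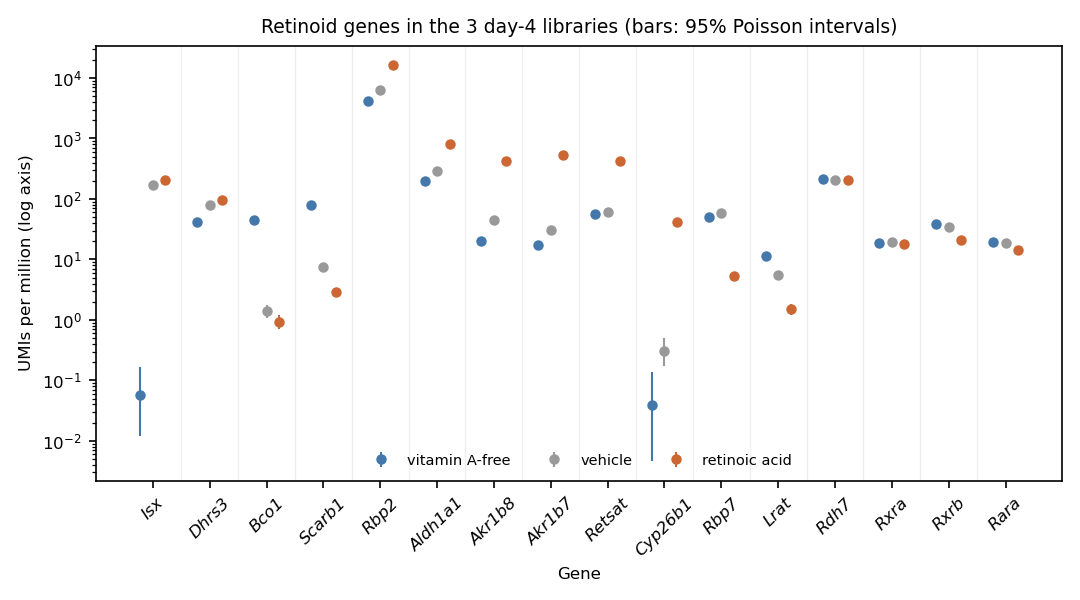
Level of 16 retinoid genes in the 3 libraries in CPM on a log axis, with exact 95% Poisson intervals as bars. Isx, Bco1 and Scarb1 separate the vitamin A-free library from the other libraries, Cyp26b1, Retsat and Rbp7 separate the retinoic acid library, and Rdh7 and the receptors Rxra and Rara are nearly level.

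The receptors were nearly level across the series of retinoid supply. Rxra was at 18.5, 19.7 and 18.3 CPM and Rara at 19.1, 18.5 and 14.2 CPM. Rxrb was lower with retinoic acid (38.6, 34.1 and 20.98 CPM). Of 8 receptor genes, 4 reached the floor and 0 were 1.5-fold apart after centring; their median log2 ratio was 0.19 centred and -0.17 at equal totals, so its sign, like those of Rxra and Rara, depended on the scaling. Rarb, whose gene is a classical target of its own receptor, had 0 UMIs with retinoic acid and 1 in each other library. Rarg was at 1.75, 2.53 and 1.62 CPM and Rxrg had 0 UMIs.

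Genes known from other tissues to respond to retinoic acid were mostly under the floor here. Of 22 listed, 9 reached it. Of these, 4 passed 1.5-fold upward and 0 downward, against 16.2% and 14.6% of all genes compared. The median log2 ratio was 0.36. At equal totals without centring, 3 passed upward and 2 downward, and the median was 0.001. The 4 were Isx, Cyp26b1, Dhrs3 and Nrip1, a corepressor of nuclear receptors, which was at 103, 116 and 130 CPM. Cdx1, an intestinal homeobox gene, was lower in its CPM with retinoic acid (169, 167 and 91.7 CPM), and its centred ratio was under 1.5-fold. Ripk4, Tgm2 and Cd38 were at 18.1, 20.7 and 18.2 CPM, 13.6, 15.6 and 10.9 CPM, and 51.8, 55.4 and 37.7 CPM. The Hox genes Hoxa4, Hoxb1 and Hoxb4 and the germ-cell gene Stra8 stayed under 1 CPM in each library. Aqp3, a water and glycerol channel, was under the floor and yet 20.7 (13.6 to 33.3) times higher with retinoic acid than in the vehicle (0.539, 0.418 and 8.66 CPM).

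Targets of RXR partners were much higher at the excess end, and the median PPAR gene had a smaller removal than excess step. Of 27 PPAR and fatty acid oxidation genes at the floor, 26 were higher by 1.5-fold or more and 0 lower. Their median log2 ratio was 1.86, made of 1.67 at the excess step and 0.20 at the removal step. Cyp4a10, a fatty acid omega-hydroxylase, had 3, 6 and 8230 UMIs and was at 0.0577, 0.114 and 128 CPM. Pdk4, a kinase that spares glucose by switching off pyruvate dehydrogenase, was at 0.462, 0.456 and 59.6 CPM, 129 (86.6 to 202) times higher across the ends. Acaa1b, a peroxisomal thiolase, was at 39.4, 63.3 and 713 CPM. Fabp2, the intestinal fatty acid-binding protein, went from 2206 and 2167 CPM to 15973, and thus showed no removal step (0.982 (0.974 to 0.990)).

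Bile acid genes included the highest centred log2 ratio of all genes compared, that of Fabp6. Fabp6, the ileal bile acid-binding protein, had 7, 7 and 15834 UMIs, or 0.135, 0.133 and 247 CPM, a ratio of the ends of 1836 (891 to 4567). The vehicle stood at the vitamin A-free level. Fabp6 was detected in 0.0204%, 0% and 8.69% of thinned cells; the 0 of 4628 vehicle cells allow up to 0.0648% (3 counts) at that depth only. Unthinned, it was detected in 0.141%, 0.104% and 13.3%. In the thinned retinoic acid cells that had it, its mean was 8.86 UMIs, so its transcripts were held by few cells. In the enteroendocrine-rich cells it was found in 0 of 22 at the same depth. Cyp4a10 was spread more widely, detected in 27.6% of thinned retinoic acid cells at a mean of 1.41 UMIs. The basolateral bile acid exporter genes Slc51a and Slc51b differed from Fabp6 in having a removal step. Slc51a was at 18.6, 66.96 and 355 CPM, with steps of 3.60 (3.35 to 3.87) and 5.30 (5.11 to 5.49), and Slc51b at 32.8, 55.9 and 491 CPM. Nr0b2, an FXR-induced corepressor, was at 3.77, 2.79 and 58.9 CPM. All 9 bile acid genes at the floor were at least 1.5-fold higher (median 2.40).

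Xenobiotic and lipogenic targets were also higher. Of 20 targets of VDR, PXR and CAR, 16 were higher by 1.5-fold or more, with 0 lower (median 1.78), such as the drug-metabolising Cyp3a11 at 62.6, 85.7 and 599.9 CPM. S100g, the calcium carrier calbindin, was at 593, 523 and 2053 CPM. Of 12 LXR and lipogenesis genes, 8 were higher and 0 lower (0.86). Scd1, the fatty acid desaturase, was at 284, 418 and 2624 CPM, and Abcg8, a sterol exporter subunit, at 78.7, 104 and 255 CPM.

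Genes of the absorptive enterocyte were lowest without vitamin A and highest with retinoic acid. The median enterocyte gene had a larger part at the removal step than the median PPAR gene. Shares of UMIs per cell, given below, did not show this contrast. Of 28 enterocyte genes at the floor, 25 were higher by 1.5-fold or more and 1 lower. The median log2 ratio was 1.80, with 1.15 at the excess and 0.59 at the removal step, and 15 of the 25 members that were 2-fold apart were graded. Apoa1, an apolipoprotein of chylomicrons, was at 1113, 2455 and 11088 CPM, 2.21 (2.18 to 2.23) times higher in the vehicle than in vitamin A-free medium and a further 4.52 (4.49 to 4.54) times with retinoic acid. Apob, the scaffold of these particles, was at 226, 358 and 916 CPM. All 14 apolipoprotein and chylomicron genes were at least 1.5-fold higher (1.76). So were all 15 brush-border enzymes (1.79), such as the peptidase Mep1b at 68.9, 132 and 529.6 CPM, and all 16 sugar, peptide and amino acid transporters (1.45), such as the glucose transporter Slc2a2 at 101, 171 and 311 CPM.

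Among the 12 highest genes, 3 were on none of the lists. Fmo5, a flavin monooxygenase, was at 50.5, 293 and 1096 CPM, with steps of 5.81 (5.57 to 6.05) and 3.74 (3.68 to 3.81). Gda, guanine deaminase, was at 2.40, 9.86 and 193 CPM, and Gchfr, a regulator of tetrahydrobiopterin synthesis, at 20.2, 30.97 and 261 CPM. All 3 were graded, Fmo5 under 14 and Gda under 12 of 14 other settings. Gchfr was graded under only 5 of 14 and excess-sided under the rest.

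**Figure D3:**
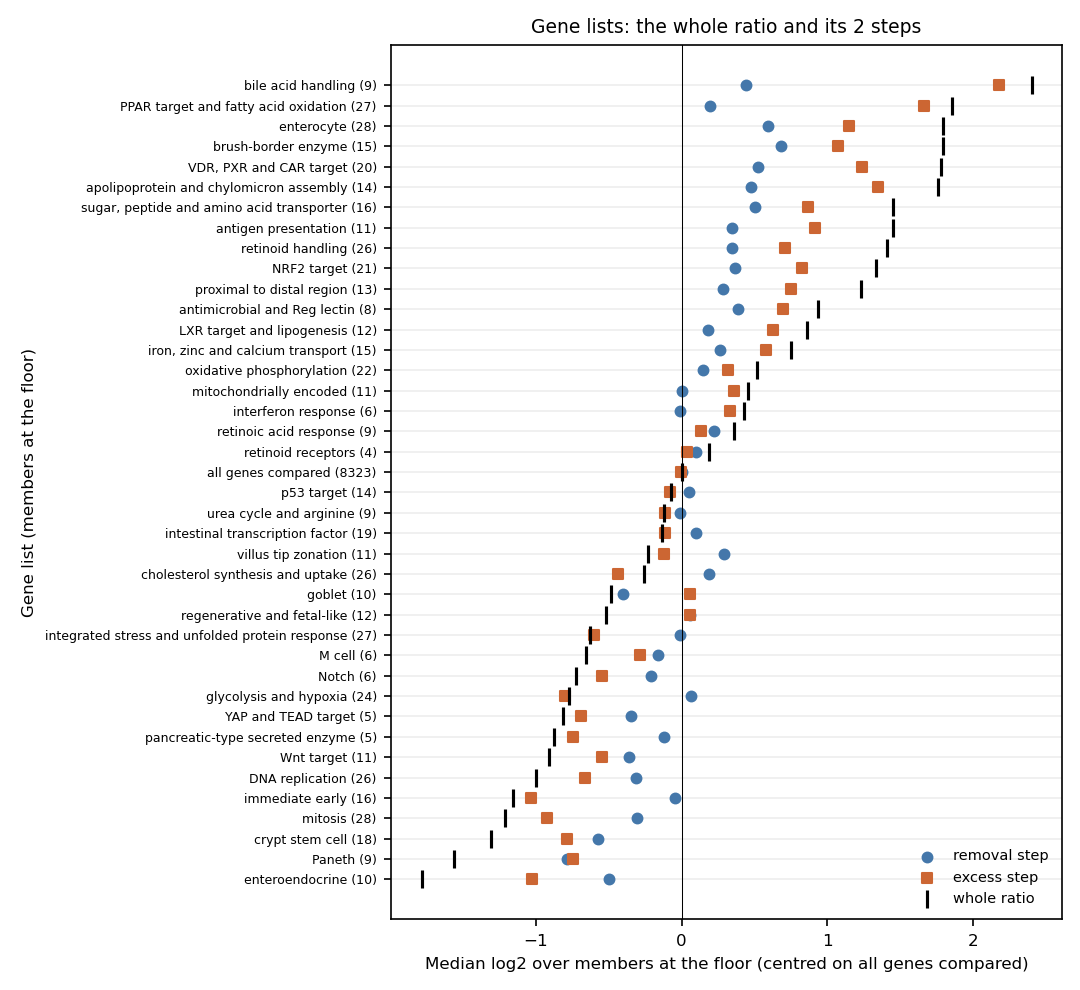
Median centred log2 ratio of each gene list with at least 4 members at the floor, as the whole ratio (vertical tick), the excess step (square) and the removal step (circle); the number of members at the floor is in parentheses. PPAR, glycolysis and immediate early lists have a removal step near 0, whereas Paneth, crypt stem, brush-border and enterocyte lists have both steps.

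Crypt genes were lowest with retinoic acid and highest without vitamin A. Of 18 crypt stem-cell genes at the floor, 0 were higher and 16 at least 1.5-fold lower, with a median of -1.31 divided into -0.78 and -0.57. Lgr5, the R-spondin receptor of stem cells, was at 74.8, 36.8 and 5.51 CPM, 13.6 (12.2 to 15.2) times lower across the ends. Olfm4, a secreted stem-cell marker, was at 547, 279 and 66.5 CPM, and Smoc2, a matrix protein of the crypt base, at 318, 211 and 50.8 CPM. Lower levels were found for 9 of 11 Wnt targets and higher ones for 0 (-0.91), among them the feedback inhibitor Axin2 at 52.7, 27.4 and 9.24 CPM and the transcription factor Myc at 40.5, 28.6 and 8.40 CPM. Hes1, the main Notch effector, was at 107, 83.9 and 26.2 CPM.

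Paneth and hormone genes were lower with retinoic acid than in vitamin A-free medium. Of 9 Paneth genes, 8 were at least 1.5-fold lower and 0 higher, and their median, -1.56, was divided about evenly into -0.75 and -0.79. The defensin Defa24 was at 791, 496 and 134 CPM, the lectin Itln1 at 823, 407 and 148 CPM and lysozyme Lyz1 at 272, 147 and 78.9 CPM. Reads of defensins, like those of other near-identical families, may be assigned uncertainly between paralogs. Nupr1, a stress-response gene on the Paneth list, was 31.5 (27.9 to 35.6) times lower across the ends (136, 59.6 and 4.31 CPM). All 10 enteroendocrine genes at the floor were lower (-1.78). With likely doublets removed, 8 were at the floor and 7 of them lower (-1.215).

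The hormones differed in placement, and some of their levels rested on barcodes that scored as likely doublets. Cck, cholecystokinin, was graded at 242, 102 and 7.90 CPM. Gcg, the glucagon precursor, was also graded, at 37.5, 6.54 and 0.843 CPM. With likely doublets removed Cck was at 91.3, 71.7 and 8.34 CPM and excess-sided, and Gcg was at 0.528, 6.66 and 0.892 CPM, so that its vitamin A-free level was no longer the highest. Gip, the glucose-dependent insulinotropic peptide, was level between vitamin A-free medium and vehicle and nearly absent with retinoic acid, at 20.5, 22.2 and 0.109 CPM, the last from 7 UMIs. With likely doublets removed it was at 4.98, 0.160 and 0.116 CPM. These hormones came from few cells: at 3000 UMIs Gip was seen in 0.142%, 0.0864% and 0.0191% of cells and Gcg in 0.346%, 0.195% and 0.0764%. Unthinned, the shares were 0.302%, 0.146% and 0.0373% for Gip and 0.605%, 0.543% and 0.131% for Gcg.

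Goblet genes went in both directions. Of 10 at the floor, 3 were at least 1.5-fold higher (1 at equal totals) and 5 lower (-0.49). Of all genes compared, 16.2% were higher and 14.6% lower by this rule after centring. Clca1, a mucus-processing protease, was higher at each step (4.35, 14.8 and 56.4 CPM), while Spink4 and Agr2, a protease inhibitor and a mucin-folding isomerase, were at 415, 316 and 151 CPM and 502, 347 and 194 CPM. The only tuft gene at the floor, Ltc4s, was at 12.7, 11.9 and 31.4 CPM.

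Cells were also classed by UMIs at equal depth, with at least 5 UMIs of a marker set among 3000 placing a cell in a class. Such a class is a range on a score and not a cell type. Cycling cells, by DNA replication and mitosis genes, made up 49.9% (48.5 to 51.3) of the vitamin A-free, 36.8% (35.4 to 38.2) of the vehicle and 21.2% (20.1 to 22.3) of the retinoic acid cells, with exact binomial 95% intervals. The share in the vehicle was intermediate. In that order, 748, 619 and 828 cells lay within 1 UMI of the limit, and 50, 159 and 128 cells under 3000 UMIs were left out. Crypt stem-rich cells made up 18.2% (17.1 to 19.3), 10.2% (9.34 to 11.1) and 3.02% (2.57 to 3.52), with 284, 168 and 68 near the limit. Most of these were also cycling, 804 of 895, 456 of 472 and 156 of 158. These shares are of cells that passed a sort against dead cells, and its part in them was not tested.

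Secretory classes were smaller in the same order. Goblet-rich cells were 4.93% (4.34 to 5.57), 3.44% (2.93 to 4.001) and 2.005% (1.64 to 2.42), and Paneth-rich cells 3.91% (3.38 to 4.49), 2.44% (2.02 to 2.93) and 1.78% (1.44 to 2.171). These sets overlapped: 171 of 192, 97 of 113 and 68 of 93 Paneth-rich cells were also goblet-rich, with a median of 51, 44 and 19 UMIs of goblet genes. They are therefore not read as separate lineages. Enteroendocrine-rich cells were 1.51% (1.18 to 1.89), 1.21% (0.915 to 1.57) and 0.420% (0.263 to 0.635), or 74, 56 and 22 cells. Of these, 24, 20 and 5 were also goblet-rich and 25, 20 and 7 also Paneth-rich, so this class is not a pure lineage either.

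**Figure D4:**
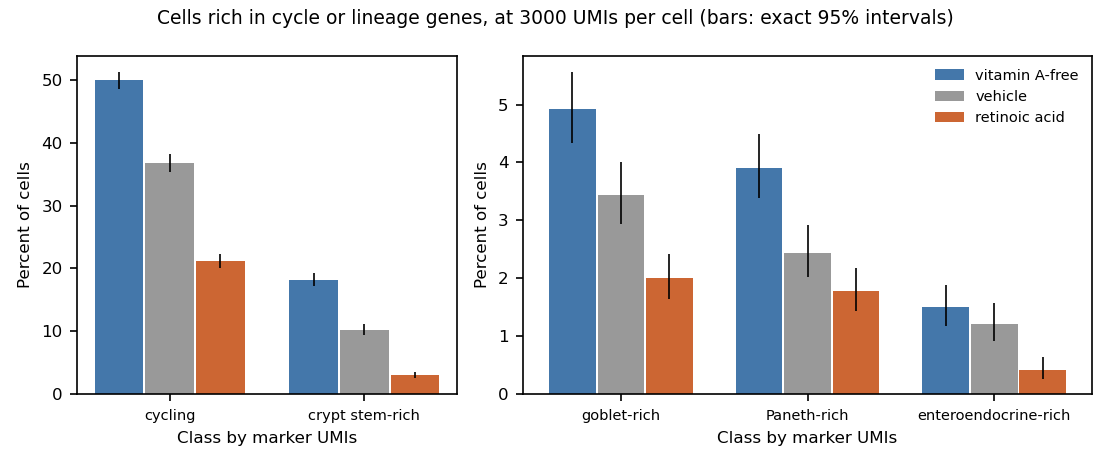
Percent of cells thinned to 3000 UMIs that reached 5 UMIs of each marker set, with exact 95% binomial intervals. In every class shown the bars descend from vitamin A-free medium through the vehicle to retinoic acid.

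In the library sums, 26 of 28 mitosis genes and 22 of 26 DNA replication genes were at least 1.5-fold lower with retinoic acid and 0 were higher (medians -1.22 and -0.998). The conjugating enzyme Ube2c, which acts at mitotic exit, was at 405, 310.3 and 101 CPM, topoisomerase Top2a at 194, 138 and 51.2 CPM and thymidine kinase Tk1 at 66.1, 47.4 and 14.7 CPM. Each of the 24 mitosis and 13 replication genes that were 2-fold apart was excess-sided, against 82.9% of all lower genes. The medians of both lists were also lower at the removal step, but short of the 1.5-fold limit. For mitosis genes the median was -0.93 at the excess and -0.31 at the removal step. For replication genes these values were -0.66 and -0.31. With the smaller step limit given above, Top2a and Tk1 were graded, whereas Ube2c stayed excess-sided.

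Differences were also measured within the cycling class, where its share in a library does not enter. The make-up of the class still differed between libraries. Crypt stem-rich cells were 804 of 2451, 456 of 1702 and 156 of 1108 cycling cells, and 1853, 1315 and 644 cells stayed in the class at a limit of 8 UMIs. The part of this make-up in the differences below was not tested. Among 8474 genes there, 767 (9.05%) were at least 1.5-fold higher and 376 (4.44%) lower after centring within the class. Of the PPAR genes, 26 of 27 were higher (median 1.60), and so were 9 of 9 bile acid genes and 25 of 27 enterocyte genes (1.73). Of crypt stem-cell genes, 11 of 19 were lower (-0.69). Cyp26b1 was at 0 UMIs, 3 UMIs and 455 UMIs in cycling cells. Isx had 0, 154 and 219 CPM, Bco1 14.4, 1.43 and 1.42 CPM and Fabp6 0.109, 0.147 and 136 CPM. Bco1 in vitamin A-free cells outside the class was at 80.6 CPM, and Scarb1 at 115 against 46.9 CPM in cycling cells. Lyz1 had no such order in cycling cells (225, 144 and 201 CPM), unlike in the other cells (324, 149 and 44.2 CPM).

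Within crypt stem-rich cells Isx and Dhrs3 were higher at each step. Isx was at 0, 143 and 223 CPM, and Dhrs3 at 7.85, 36.3 and 95.7 CPM. Bco1 was low there even without vitamin A, at 2.97, 1.08 and 0 CPM from 28, 6 and 0 UMIs. Cyp26b1 and Fabp6 were low in the retinoic acid cells of this class, 6.08 and 6.63 CPM from 11 and 12 UMIs. In goblet-rich cells of that library they were at 64.6 and 233 CPM, and in the overlapping Paneth-rich cells at 55.9 and 228 CPM. The absorptive gene Fabp2 was at 2102 CPM in these goblet-rich cells and at 2440 CPM in enteroendocrine-rich cells of the same library. Fabp6 was at 7.51 CPM in the latter, from 1 UMI. The part of doublets, or of RNA released from other cells, in these levels was not tested.

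Values per cell showed how many cells carried these differences. Enterocyte genes took a median of 1.87%, 4.80% and 14.9% of the UMIs of a cell. In the retinoic acid library 82.2% of cells exceeded the 90th percentile of the vitamin A-free cells. For PPAR genes the medians were 0.900%, 2.30% and 8.30%, and 85.2% of cells exceeded that percentile. A share of UMIs weighs abundant members most, so the PPAR share had a removal step that the median PPAR gene hardly had. Fabp2, given above with the PPAR genes, is also an enterocyte marker. It had a mean of 49.2 UMIs in the thinned retinoic acid cells with it. The enterocyte and PPAR shares are therefore not taken as separate results. The vehicle medians were nearer to the vitamin A-free ones in each case.

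**Figure D5:**
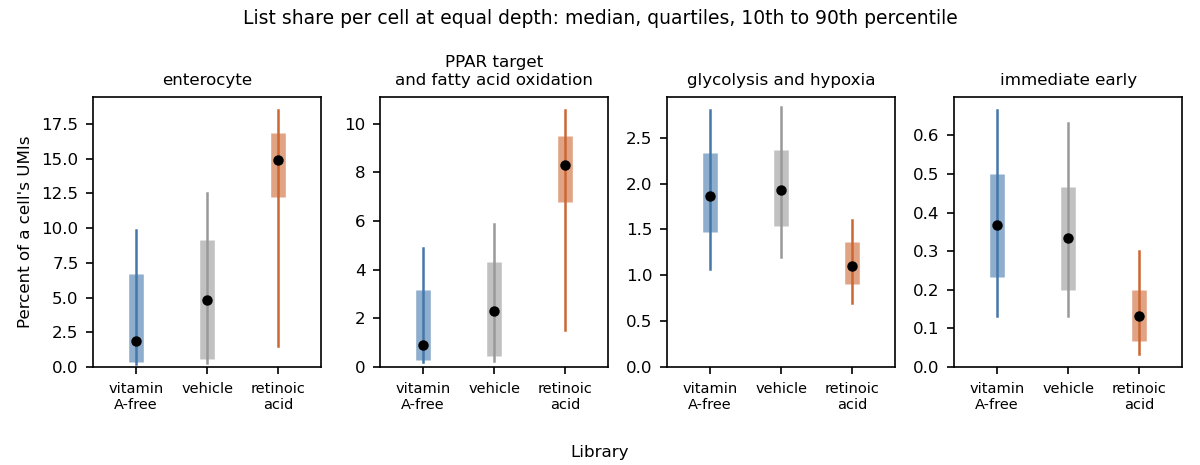
Percent of each cell's UMIs taken by 4 gene lists after thinning to 3000 UMIs, as median (point), quartiles (thick bar) and 10th to 90th percentile (line) over cells. Enterocyte and PPAR shares are highest with retinoic acid, and glycolysis and immediate early shares are lowest there while the other libraries are close.

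At the excess step 15 of 24 glycolysis and 12 of 16 immediate early genes were at least 1.5-fold lower, against 8.43% of all genes compared. At the removal step the count of lower genes was 0 in both lists, near the 0.865% of all genes. Across the ends, 0 of the 24 glycolysis and hypoxia genes at the floor were higher and 13 at least 1.5-fold lower with retinoic acid (20 at equal totals). The median was -0.77, with -0.80 at the excess and 0.07 at the removal step. The glucose transporter Slc2a1 was at 78.1, 81.2 and 19.3 CPM and the oxygen sensor Egln3 at 161, 173 and 32.7 CPM. Per cell, the list took 1.87%, 1.93% and 1.10% of UMIs, and 3.19% of retinoic acid cells exceeded the vitamin A-free median. It was also lower in 18 of 24 members within cycling cells (-0.93) and in 14 of 23 outside them.

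Immediate early genes, which respond within minutes to growth factors and also to cell dissociation, had 11 of 16 members lower and 0 higher (-1.16; removal step -0.04). Fos was at 710.0, 659.5 and 179 CPM and Egr1 at 218, 179 and 58.5 CPM. Dissociation time was not given for each library, and its part in this list was not tested. Genes of the integrated stress and unfolded protein responses were lower in 14 of 27 and higher in 1 (-0.63), with the stress factor Atf3 at 91.7, 85.6 and 17.02 CPM and the mTOR inhibitor Ddit4 at 102, 68.8 and 10.8 CPM. Median mitochondrial shares, given above, were highest with retinoic acid, and their part in these lists was not tested.

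Ctrb1, a chymotrypsinogen typical of the pancreas, had the lowest centred log2 ratio of all genes compared. It was at 971, 696 and 9.21 CPM, 105 (97.2 to 115) times lower across the ends and 75.6 (69.7 to 82.1) times lower than in the vehicle. It was detected in 22.6%, 20.98% and 1.47% of thinned cells and in 31.8%, 28.5% and 2.85% unthinned. In enteroendocrine-rich cells it was detected in 4 of 74, 2 of 56 and 0 of 22. It was higher outside the cycling class (1800, 1032 and 10.5 CPM) than within it (242, 168 and 5.03 CPM).

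Genes with opposed steps included 2210407C18Rik and Sprr2a3. In 2210407C18Rik, named although its symbol is a provisional one, the vehicle was lowest, at 169, 72.8 and 336 CPM. Sprr2a3, a cornified envelope protein, was at 191, 279 and 27.3 CPM, highest in the vehicle, and was placed so under 8 of 14 other settings.

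Other removal-sided genes were few. Entpd8, a nucleotide hydrolase, was at 16.8, 49.3 and 53.8 CPM, and Gcnt3, a mucin core glycosyltransferase, at 29.6, 66.4 and 76.7 CPM. On the lower side Sorbs2, a cytoskeletal adaptor, was at 21.3, 9.31 and 3.75 CPM. Its CPM fell at least as much at the excess step, so its placement rested on the added 5 CPM and the centring. It was placed so under 5 of 13 other settings.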

How the data were processed

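Each library was read from the raw UMI counts deposited by the authors, a matrix of 55335 genes by cell barcodes, with genes taken by the symbol and Ensembl ID in the matrix. Per the labels' protocols, organoids were dissociated, sorted for live cells and turned into droplet libraries of 3-prime ends. bcl2fastq 2.17, Cell Ranger 3.1.0 and GRCm38 appear without a role in the list from the submitters' processing notes. Genes per barcode began at 1001, and mitochondrial UMIs ended at 9.996%. Strand use in the counting is not given in the sources used here.

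UMIs were summed per library over all barcodes and scaled to CPM. For log2 ratios 5 CPM was added to each level, a gene had to reach a floor of 10 CPM in either end library, and ratios were centred on the median of all genes compared (-0.36 for the ends at equal totals, -0.08 for the removal and -0.29 for the excess step). A gene was called at 2-fold, and a step or list member at 1.5-fold. Named folds are ratios of CPM without pseudocount or centring. A library with 0 UMIs can lie at up to 3 UMIs. For values per cell, cells were thinned to 3000 UMIs. Doublets were kept, because Scrublet (scanpy 1.11.5) marked 0.0559% to 1.35% of barcodes at its own threshold and did not work as a filter. Removing 183 to 230 barcodes per library by score was an alternative. Python 3.11.15, edgeR 4.0.16 and DESeq2 1.42.0 (R 4.3.3, scaling factors only) were used. On simulated data for the ends, 97% of 200 changed genes among 7807 were placed in the right class, with 0 false calls. Those data held counting error only, and the changed genes were well expressed, with steps set away from the 1.5-fold limit. The figure checks the procedure and does not give the accuracy of the placements reported here.

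Named genes were all members of the retinoid handling, retinoid receptor and retinoic acid response lists, the 12 highest and 12 lowest ratios without predicted genes, the 5 largest per placement and direction, and up to 4 members of each other list; some of these genes are not reported here. Members and the 45 lists were chosen with earlier results of these data known. UMIs shared between paralogs or antisense partners may be assigned uncertainly.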

Additional observations from a re-analysis of the deposited data

How the results depend on the processing

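No paired analysis was possible because each group was 1 library, and for the same reason no library could be left out. The count of higher and lower genes was 352 and 1051 without centring, 383 and 1028 without a floor, where centring falls on unexpressed genes, and 347 and 171 with a pseudocount of 20 CPM. A floor of 50 CPM left 379 higher genes, a pseudocount of 1 CPM gave 682 lower ones, and totals without the most abundant genes gave 840 lower ones. Excess-sided genes numbered 1189 without centring, 1183 without a floor, 407 with the pseudocount of 20 CPM and 493 with the floor of 50 CPM. Steps of 25% gave 602 graded, 396 excess-sided, 5 removal-sided and 7 outside. Steps of 2-fold gave 18, 473 and 18 of the first 3 kinds. Placing the vehicle by its share of the log2 ratio gave 315 graded, 12 removal-sided and 52 outside. Graded genes numbered 285 at 1 CPM and 79 at 20 CPM of pseudocount, and removal-sided genes 18 at 20 CPM and 12 at the floor of 50 CPM. TMM, DESeq2 factors, doublet removal, thinning and equal weight per cell kept each of these counts within 1.5 times. The cause of these shifts was not tested beyond the genes each setting admits.

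The difference in cycling cells, -28.7 percentage points, was -23.1 at a limit of 3 UMIs and -25.4 at 8 UMIs, and the median of PPAR genes within them, 1.60, was 1.12 at 8 UMIs. Of 457 alternative list medians, 13 had another sign. For 3 whose main value was at least 1.5-fold this was without a floor: tuft (-0.075), M cell (0.0055) and fibroblast and muscle (0.019). The other 10 were of retinoid receptors (-0.17 at equal totals), urea cycle, intestinal transcription factor and p53 genes (TMM or DESeq2 factors), and interferon genes (-1.91 at the floor of 50 CPM). For genes under 10 UMIs in a library, such as Isx without vitamin A, depth limits the ratio to its interval.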

Other observations

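Antigen presentation and oxidant defence genes were also higher at the excess end, by size and with no test. All 11 antigen presentation genes at the floor were at least 1.5-fold higher (median centred log2 ratio 1.45, of which 0.34 at the removal step), with H2-Q2, a class I molecule, at 119.9, 175 and 408 CPM and the peptide-loading protein Tapbp at 26.8, 38.9 and 70.1 CPM in vitamin A-free medium, vehicle and retinoic acid. Per cell the list took 0.133%, 0.167% and 0.300% of UMIs. Of 6 interferon genes, 3 were higher and 2 lower, against 16.2% and 14.6% of all genes compared. Irf7 was at 5.58, 8.74 and 15.6 CPM and Ifitm2 at 259, 181 and 44.4 CPM. Higher levels were measured for 16 of 21 NRF2 targets and a lower one for 1 (1.34), and malic enzyme Me1 was at 47.96, 77.9 and 454 CPM. Of 22 oxidative phosphorylation genes, 9 were higher and 0 lower (0.52; 3 higher at equal totals and 14 with DESeq2 factors), with the cytochrome oxidase subunit Cox7a1 at 38.4, 76.9 and 132 CPM.

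Regional and mineral transport genes were mixed. Of 13 genes that mark the length of the gut, 8 were higher and 1 lower (1.23). The ileal genes Fabp6, Slc51a and Slc51b were among the 8 higher, and Bco1 was the lower. The region of the other higher members is not given here, so no shift along the gut is read from this list. Of 15 iron, zinc and calcium genes, 9 were higher and 1 lower (0.75), with the ferritin chain Fth1 at 10999, 12479 and 27066 CPM. Trpm6, a magnesium channel on the regenerative list, was 61.5 (40.5 to 98.5) times higher with retinoic acid than in the vehicle (0.500, 0.418 and 25.7 CPM), whereas S100a6, of the same list, was at 123, 55.9 and 24.1 CPM. Of the 12 genes of that list at the floor, 4 were higher and 5 lower (-0.52). Of 26 cholesterol genes 3 were higher and 4 lower (-0.26), shares near the 16.2% and 14.6% of all genes, and at equal totals 0 were higher and 14 lower. Argininosuccinate synthase Ass1 was at 26.9, 15.8 and 0.999 CPM.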
